A study of Mus musculus with 1 sample.

Results

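The cytosolic ribosomal protein genes were examined in single-cell transcriptomes of alveolar macrophages (AMs), the macrophages that live in the airspaces of the lung. Members were chosen by name: every gene of the deposited table whose symbol starts with Rpl or Rps followed by a digit, leaving out the 8 Rps6k kinase genes, plus Rplp0, Rplp1, Rplp2 and Rpsa. The rule took 100 of 11918 genes, or 0.839% of the genes, and used no measured value. Of these, 77 were in a list of ribosomal proteins, 46 of the large and 31 of the small subunit. The other 23 were paralogs, retrogenes, pseudogenes and 1 partner protein that carry such names, 14 of them with a pseudogene name.

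The study examined the histone deacetylase HDAC3 in AMs, and the library described here is its WT arm. It came from 1 mouse labelled wild-type, Hdac3fl/fl without Cre, aged 8 to 12 weeks, of an FVB/NJ strain crossed back to C57BL/6 over 10 generations. CD45+CD11c+SiglecF+ lung cells were sorted, 5000 were loaded, and transcripts were counted at their 3' ends with the 10x Genomics v2 chemistry, in which each captured transcript carries a unique molecular identifier (UMI). With 1 library there was no replicate, so no test between mice or conditions was possible, and cells were not treated as replicates. The Hdac3-deficient library was not analysed here.

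The table held 2055 cells and 7222978 UMIs, with 1143 to 8603 UMIs per cell (median 3278) and 528 to 2495 genes per cell (median 1454). AM markers were present, with 15 of 16 listed and 187201 UMIs in all, and Chil3, a chitinase-like protein abundant in AMs, had a UMI in 100% of the cells. Markers of other cells were scarce, with 99 UMIs over 6 listed genes of monocytes or interstitial macrophages, 354 over 3 of neutrophils, and 1019 over 2 of lymphocytes, 1006 of them of Jchain in 3.21% of the cells. The 7 epithelial genes held 2555 UMIs, of which 2178 were of Epcam. The study's methods describe removal of genes for structural ribosomal proteins and of cells with a high mitochondrial content, but the deposited table held both.

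The ribosome is the RNA and protein machine that translates messenger RNA. Its small subunit reads the message, its large subunit joins the amino acids, and each subunit carries a set of proteins that are needed in matched amounts. Messages of ribosomal proteins are among the most abundant in most cells, and many begin with a terminal oligopyrimidine (TOP) tract, a run of C and T bases at the start of the transcript through which growth signals control their translation.

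The sequences around annotated transcript starts are shown because this tract is the sequence feature known to be shared by the genes. Windows of 10 bases before and 20 bases from the start were read from RefSeq (build GRCm38.p6) for members that had one. The capitals mark a run of at least 5 C and T bases that begins with C and starts within 5 bases of the annotated start on the strand of the gene. Rpl41 (chr10:128549149-128549178, minus strand) and Rpl37a (chr1:72711250-72711279, plus strand) had the highest levels. Rps27 (chr3:90213629-90213658, minus strand), Rpl7a (chr2:26910797-26910826, plus strand) and Rpl22l1 (chr3:28805498-28805527, plus strand) were chosen after their values were seen, as a member of high level with a tract and as members that differed in cycling cells.
Rpl41: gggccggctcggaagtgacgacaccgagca
Rpl37a: ctcgccggtctaaaaccgcgcatgcgcatt
Rps27: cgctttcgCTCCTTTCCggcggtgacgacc
Rpl7a: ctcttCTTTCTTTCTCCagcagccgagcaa
Rpl22l1: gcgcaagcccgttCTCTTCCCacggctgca

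Of the 57 genes of the ribosomal protein list with a window, 27 (47.4%) held such a run, against 5718 of 27025 genes of the RefSeq table (21.2%) and 2103 of 8882 genes of the single-cell table outside the members (23.7%). Rpl41 and Rpl37a held none in these windows. In the GENCODE M21 annotation the gene Rpl37a starts at 72711290, past the end of its window at 72711279. The gene Rpl41 starts there at 128549305, also outside its window. The absence of a run here therefore does not show that the messages of Rpl41 and Rpl37a lack one, and a relation to level was not tested. A run that was found has the same limit. The genes Rpl7a and Rpl22l1 start in GENCODE at 26910764 and 28805436, before their windows. Their runs therefore need not lie at the start of the message. The gene Rps27 starts at 90213651, inside its window. The match is a description of letters at an annotated start, and the starts used in AMs were not measured.

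Ribosomal protein genes were among the main contents of the library as a whole. The 100 genes held 1037343 UMIs, 14.4% of all UMIs (95% exact binomial interval 14.3 to 14.4, which like every interval here covers counting error only). A cell had 42 to 1424 UMIs on them (median 470) and UMIs of 32 to 94 members (median 83). The share per cell had a median of 14.3%, quartiles of 12.4% and 16%, and 5th and 95th percentiles of 8.65% and 18.5%.

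The share differed between cells by far more than counting error. Its SD over cells was 3.10 percentage points around a mean of 14.1%, while binomial counting at the same UMI totals gives 0.649, so that the observed SD was 4.78 times as large. At the low end, 79 cells (3.84%) were under 8%, with a minimum of 3.17%. At the high end, 37 cells (1.80%) were over 20%.

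**Figure D1:**
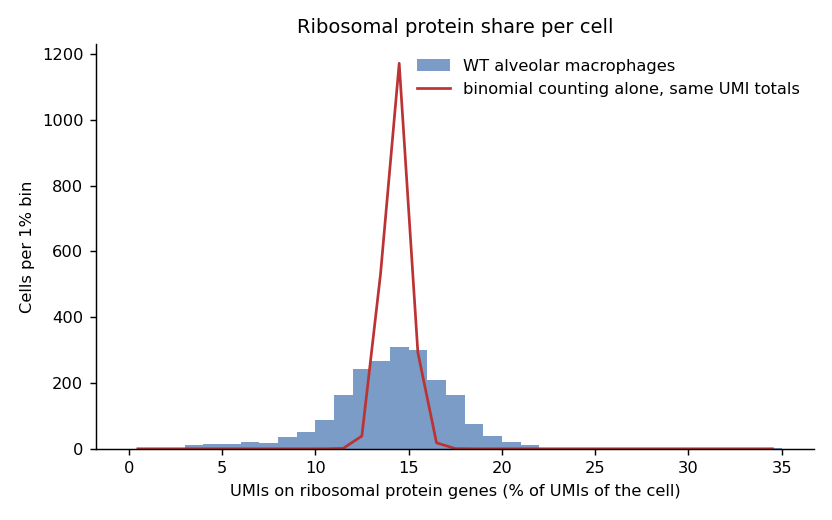
Number of cells (vertical axis, in bins of 1%) by the percent of the cell's UMIs on ribosomal protein genes (horizontal axis), with bars for the 2055 WT AMs and a line for binomial counting alone at the same UMI totals. The bars spread from 3.17% to 34.2%, wider than the line, with a median of 14.3%.

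The highest shares belonged to a few cells that carried little AM signal. The 4 highest stood apart, at 34.2%, 33.7%, 27.3% and 27.0%, and the next cells were at 22.1% and 22.0%. These 4 cells had 5, 14, 5 and 10 UMIs of AM markers, or 0.253% to 0.401% of their UMIs against a median of 2.49% (79 UMIs) over all cells, and they were among the 6 lowest cells by that measure. One of them had 145 and another 399 UMIs of MHC class II genes, which present antigen. Chil3 had 3, 8, 3 and 3 UMIs in the 4 cells, so its presence in every cell does not make every cell rich in AM signal. The 4 cells were looked at after their values were seen, and which cell type they were was not tested. Without them the SD was 3.01 and the median 14.3%. All 11 cells with under 1% of UMIs on AM markers had a median ribosomal protein share of 19.7%.

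The subunits moved together from cell to cell. Large subunit genes had a median of 7.81% of a cell's UMIs (quartiles 6.76% and 8.79%) and small subunit genes 5.95% (5.08% and 6.70%). The ratio of large to small had a median of 1.31, with 5th and 95th percentiles of 1.1 and 1.59. Across the 2055 cells the correlation of both shares was r = 0.881 (rho = 0.851). Both shares are divided by the same total of the same cell, and with the UMIs outside ribosomal protein genes as the total r was 0.908.

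The share was lower and more variable in the shallowest cells. By quartile of total UMIs, from the lowest to the highest, the median share was 13.2%, 14.5%, 14.9% and 14.6%, and the SD was 4.00, 2.74, 2.80 and 2.15 percentage points. Over all cells the rank correlation with total UMIs was 0.186, and the total is also the denominator of the share. In the lowest quartile, 162 cells were above 5% mitochondrial UMIs, with a median share of 8.93%. The other 352 had a median of 14.3% and an SD of 3.04. Cells up to 5% in the higher quartiles had medians of 14.8% to 15.3% and SDs of 2.01 to 2.65.

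Single members differed widely in level. UMIs were counted at transcript ends and not divided by length, so levels are given as UMIs per 10000 UMIs of the library, and an order between genes is one of UMIs counted. In the list of 77, the median level was 14.1 per 10000, 59 genes were over 10, and the highest was 14.9 times the lowest. Each of the 77 had a UMI in at least 76.5% of the cells. The 5 genes with the most UMIs held 17.5% of all member UMIs.

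Rpl41, which encodes the smallest ribosomal protein, was the highest, with 52897 UMIs or 73.2 per 10000 (95% interval 72.6 to 73.9). Its level per cell had a median of 72.2 and 5th and 95th percentiles of 35.3 and 115. Rpl37a of the large subunit followed with 56.7, then the small subunit genes Rps29 with 43.3, Rps27 with 42.6 and Rps28 with 35.7. The intervals of Rps29 (42.8 to 43.7) and Rps27 (42.1 to 43.1) overlapped, so those neighbours were not told apart by counting. In cells, the 5th to 95th percentiles ran from 23.9 to 91.7 for Rpl37a, 18.2 to 69.9 for Rps29, 15.6 to 67.9 for Rps27 and 13.2 to 60.8 for Rps28, so all 4 overlapped widely from cell to cell.

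The 5 lowest of the list were all of the large subunit. Rpl29 was at 4.92 per 10000, Rpl5, which carries a small ribosomal RNA into the large subunit, at 5.23, Rpl7a at 5.29, Rpl12 at 5.39 and Rpl4 at 5.43. Among them the 95% interval of Rpl29 (4.76 to 5.08) touched that of Rpl5 (5.07 to 5.40), and that of Rpl5 reached into that of Rpl4 (5.26 to 5.60). For all 5, the 5th percentile over cells was 0.

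The stalk of the large subunit, the arm that recruits translation factors, is built of Rplp0 and of pairs of Rplp1 and Rplp2. Rplp1 was at 29.9 and Rplp2 at 26.7 per 10000, while Rplp0, which anchors them, was at 13.5. Rpsa, a small subunit protein also known as the laminin receptor, was at 8.94.

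**Figure D2:**
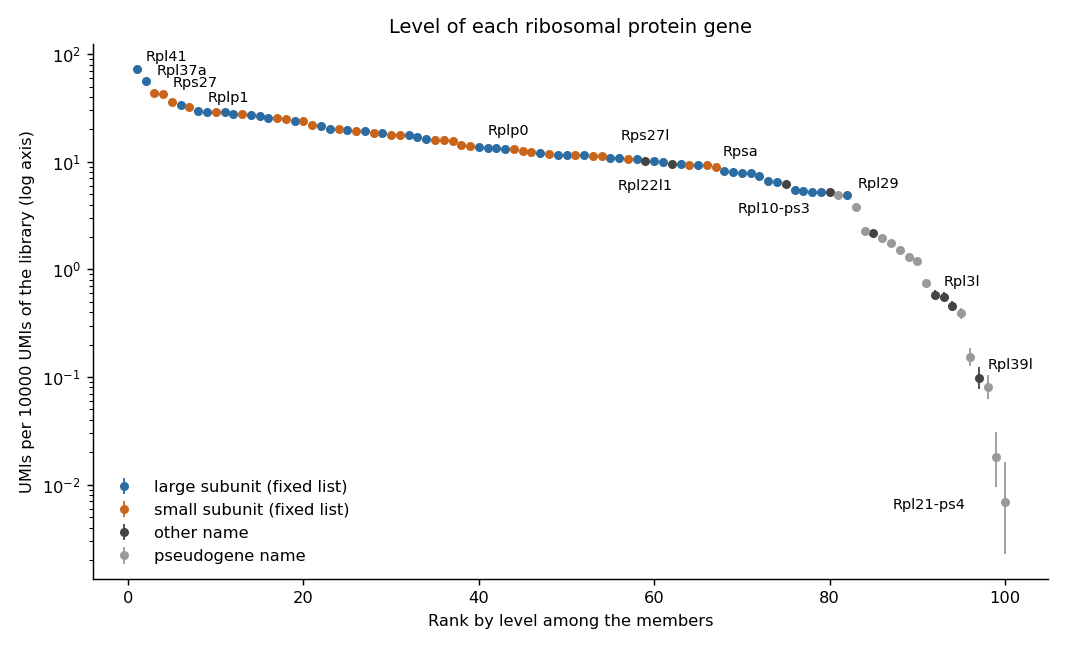
UMIs per 10000 UMIs of the library (vertical log axis) of the 100 members by rank, with points for genes, bars for 95% exact Poisson intervals, and colours for large subunit, small subunit, other names and pseudogene names. Rpl41 stands at the top with 73.2, the lowest gene of the ribosomal protein list is Rpl29 with 4.92, and the rows of lowest level are members outside that list.

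The 23 members outside the list were mostly low. Together they held 39810 UMIs, 3.84% of the member UMIs, and 7 of them had a UMI in more than 50% of the cells. The 10 with the most UMIs were Rps27l at 10.1 per 10000, Rpl22l1 at 9.48, Rpl36al at 6.27, Rps27rt at 5.2, Rpl10-ps3 at 4.93, Rpl23a-ps3 at 3.82, Rpl9-ps6 at 2.30, Rpl6l at 2.18, Rpl27-ps3 at 1.96 and Rpl13-ps3 at 1.76. At the other end, Rpl39l, a paralog of Rpl39, had 71 UMIs in 2.43% of the cells, and Rpl21-ps4 had 5 UMIs. Rps19bp1 (404 UMIs) matches the rule by its name and encodes a protein that binds Rps19, not a protein of the ribosome.

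In AMs some paralogs held a large part of a pair's UMIs and others almost none. Rpl22l1 had 6847 UMIs against 4818 of Rpl22, a ratio of 1.42 (95% interval 1.37 to 1.47). The ratio was 0.540 for Rpl36al to Rpl36a and 0.237 for Rps27l to Rps27. It was 0.0735 for Rpl3l, known from muscle, to Rpl3, 0.0487 for Rpl7l1 to Rpl7, and 0.00351 for Rpl39l to Rpl39. These are ratios of 3'-end UMIs, and the pairs were chosen after the levels were seen. Sequence shared with other genes limits them. Rpl36a and Rps27 shared 100% of their 3' sequences with other genes, Rpl36al 63.1%, Rpl22l1 52.7%, and Rps27l and Rpl22 none.

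Sequence shared between genes limits how far a level belongs to 1 gene. In the GRCm38 annotation of GENCODE M21, 32 of the 77 genes shared more than 50% of the 98-base sequences at their 3' ends with other annotated genes, and 23 shared none. The share was 100% for Rpl10, Rps27, Rpl9, Rpl36a and Rps12. Another 17 rows that the name rule left out held such shared sequences, with 21597 UMIs in all, a sum equal to 2.08% of the member UMIs. The largest were Gm10076 with 7405 UMIs, which shares sequence with Rpl41, and Gm10073 with 3904, which shares with Rplp1.

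Pairs of a gene and a row of like name had the highest correlations when cells were compared. For 82 genes with at least 1.5 UMIs per cell, the deviation from the level expected from the cell's ribosomal protein UMIs was correlated for all 3321 pairs. The median was r = -0.00796 over 2055 cells, and 4 pairs were over 0.2. They were Rpl10 with Rpl10-ps3 (0.509), Rps27 with Rps27rt (0.345), Rpl41 with Rplp1 (0.263) and Rpl41 with Rps29 (0.221). Below -0.2 lay 6 pairs, Rpl10 with Rpl41 (-0.255), Rpl37a with Rpl13 (-0.217), Rps6 with Rplp1 (-0.212), Rpl41 with Rpl3 (-0.208), Rpl37a with Rplp0 (-0.205) and Rpl13 with Rps28 (-0.203). For rows below that number of UMIs, Rpl23a with Rpl23a-ps3 reached 0.485, Rpl6 with Rpl6l 0.413 and Rpl9 with Rpl9-ps6 0.404. Of these rows, Rpl10-ps3 shared 86.2% of its 3' sequences with other genes, Rps27rt 85.7% and Rpl23a-ps3 100%. The value was -0.00790 for Rpl22l1 with Rpl22 and 0.0155 for Rps27l with Rps27, and Rpl22l1 shared 52.7% of its 3' sequences with Gm15421 and Rps27l none.

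Most single ribosomal protein genes varied between cells beyond counting error. The index of spread is taken from the difference between a gene's UMIs and those expected from each cell's total. It is the variance of that difference over cells divided by the mean expected UMIs, and 1 means counting error alone. It was over 1.1 in 79 of 95 members with at least 0.1 UMI per cell and in 73 of the 77, where the background was 25% of 4231 genes. The index grows with the number of UMIs, and at like levels (1.73 to 25.7 UMIs per cell) 210 of 236 other genes (89.0%) were over 1.1, so the count was near that of other genes at those levels. The extra coefficient of variation, what is left after counting error, had a median of 22.5% in the list of 77 and 30.7% in those 236 genes.

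The highest indices were those of genes with many UMIs. They were 2.53 for Rpl41, 2.46 for Rpl37a, 1.97 for Rps27, 1.89 for Rps29 and 1.80 for Rpl10. The lowest were 1.04 for Rpl5, 1.06 for Rpsa and 1.09 for Rpl30. The extra coefficient of variation ran from 13.1% for Rpsa to 35.3% for Rpl4, with quartiles of 20.3% and 24.4%. In the stalk it was 32.8% for Rplp0, 23.5% for Rplp1 and 16.5% for Rplp2.

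Much of this spread was shared by the whole gene set. When the expected value of a gene was set from the ribosomal protein UMIs of the cell instead of all UMIs, 44 of the 77 genes were over 1.1, the median index was 1.12 and the median extra coefficient of variation 13.6%. Rpl41 was then at 1.84 and Rplp1 at 1.64, while Rpsa (0.995), Rpl5 (0.998), Rps16 (0.993) and Rpl36 (0.958) did not exceed counting error.

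A small part of what remained within the set varied with coding length. The first principal component of the deviations of the 77 genes held 4.88% of their variance, where an equal share would be 1.30% and the second component held 2.97%. Its loadings were highest for Rpl41 (0.28), Rplp1 (0.24), Rps29 (0.24), Rpl37a (0.23), Rplp2 (0.21) and Rps28 (0.21). Their coding lengths, each the longest among the gene's principal annotated transcripts, are 138, 342, 168, 276, 345 and 207 bases. The loadings were lowest for Rpl13 (-0.21, 633 bases), Rps6 (-0.21, 747 bases), Rpl3 (-0.20, 1209 bases), Rpl15 (-0.17, 612 bases) and Rplp0 (-0.16, 951 bases).

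Across the 77 genes, the rank correlation of loading and coding length was -0.725 (r = -0.646). Coding lengths ran from 138 to 1257 bases with a median of 456. Rpl41, the shortest, had 4 principal transcripts, of which the longest coding length was used. The loading had a rank correlation of 0.297 with level and -0.0208 with the share of sequence held in common with other genes. Genes are not independent replicates, all were counted in the same cells, and level and length were themselves related (rho = -0.438). Along this axis cells had a rank correlation of -0.186 with total UMIs, -0.0979 with mitochondrial share, -0.0936 with the ribosomal protein share and 0.0508 with the share of cell cycle genes. The axis was sought after the data were seen, and what sets it was not tested.

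**Figure D3:**
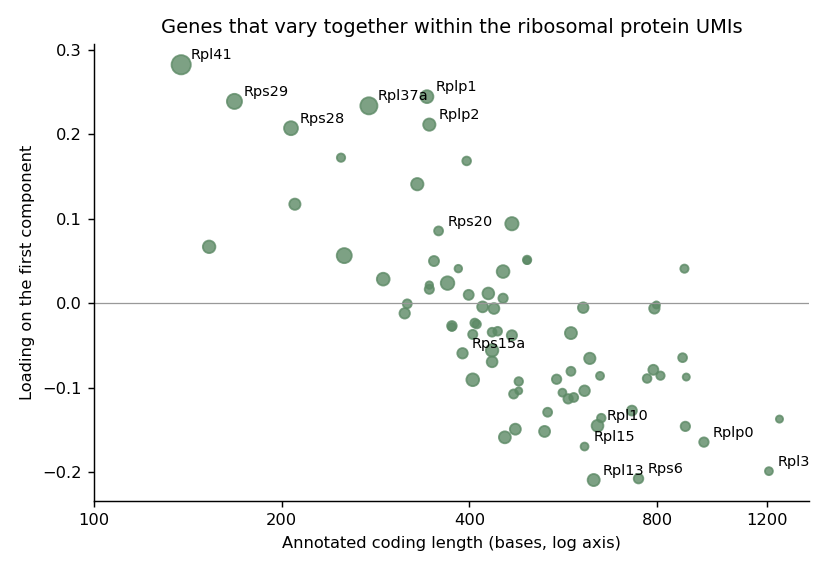
Loading of each of the 77 ribosomal protein genes on the first component of within-set variation (vertical axis) against coding length (horizontal log axis). Coding length is the longest among a gene's principal annotated transcripts, in bases, and point area grows with the gene's UMIs. Short genes such as Rpl41 (138 bases) lie at positive loadings and long genes such as Rpl3 (1209 bases) at negative ones, with a rank correlation of -0.725.

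The ribosomal protein share of cycling AMs had a median near that of the others, and the size of the difference depended on how cells were chosen. Cycling cells were the 103 cells (5%) with the highest share of UMIs on 97 listed genes of S and G2/M phase, at least 0.782% and a median of 1.48%, against a median of 0.192% in the other 1952 cells. The ribosomal protein share was 4.17% to 27.3% with a median of 14.2% in cycling cells, and 3.17% to 34.2% with a median of 14.3% in the others. The ranges overlapped, and the medians differed by -0.0618 percentage points. The difference was -0.135 for the top 10% of cells, -0.336 for the top 2.5%, -0.20 with the S phase list alone, 0.0240 with the G2/M list alone and -0.45 in cells thinned to 2000 UMIs. Across all cells the rank correlation of both shares was -0.00367.

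Depth and mitochondrial share also differed between these cells. Cycling cells had a median of 4222 UMIs and 2.94% mitochondrial UMIs, the others 3240 and 3.23%, and the part of these in the comparison was not tested. Among cells with up to 5% mitochondrial UMIs, the medians were 14.6% in 89 cycling cells and 14.8% in 1582 others. Within the cycling cells, the 47 in which S phase genes led had a median of 13.1% and the 56 in which G2/M genes led 14.6%, with quartiles of 11.6% to 15.7% and 13.1% to 16% that overlapped.

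Few single members differed in cycling cells. Genes were compared by the ratio of their UMIs per total UMIs, and a ratio of 5 to 4 in either direction was used as the limit. Of 95 members compared, 2 were past it higher and 4 lower, where 24.3% of 4889 genes were higher and 23.3% lower. In the list of 77, none was higher, 1 was lower, the median ratio was 0.963 and the range 0.786 to 1.23. The 236 other genes at like levels had 18 higher (7.63%), 75 lower (31.8%) and a median ratio of 0.889.

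The higher members were both paralogs. Rpl22l1, the paralog of Rpl22, was at 13.0 per 10000 in cycling and 9.25 in other cells, a ratio of 1.40 (95% interval 1.29 to 1.53, 586 UMIs in cycling cells). Rps27l, a paralog of Rps27 that p53 is known to induce, was at 12.6 and 9.94, a ratio of 1.27 (1.16 to 1.38). Where S phase genes led, Rpl22l1 was at 14.7 and Rps27l at 13.7 per 10000, and where G2/M genes led they were at 11.6 and 11.8. Against their partners, Rpl22l1 to Rpl22 was 1.97 (1.71 to 2.28) in cycling and 1.38 (1.33 to 1.44) in other cells, and Rps27l to Rps27 was 0.336 (0.305 to 0.369) and 0.231 (0.225 to 0.238). These values compare cells of 1 mouse and have no replicate check.

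The lower members were Rpl7a and 3 rows outside the list. Rpl7a, of the large subunit, was at 4.21 per 10000 in cycling and 5.36 in other cells, a ratio of 0.786 (0.675 to 0.909). Rpl7a shared 74.4% of its 3' sequences with other genes, which limits how far this ratio belongs to 1 gene. Rpl7a-ps5, which shares 3' sequence with it, had a ratio of 0.380 (0.152 to 0.794) on 7 and 276 UMIs, and Rpl13-ps3 had 0.758 (0.576 to 0.981). Rpl3l had 5 UMIs in cycling and 416 in other cells, a ratio of 0.180 (0.0582 to 0.424), and its ratio to Rpl3 was 0.0140 in cycling and 0.0774 in other cells. Rpl3l and Rpl7a-ps5 were singled out after their values were seen.

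Within the limit, the median ratio was 0.992 over the small and 0.956 over the large subunit genes. The 95% interval lay above 1 for 8 small and 2 large subunit genes and below 1 for 9 small and 15 large ones, in all 13.0% and 31.2% of the 77. In the 236 other genes at like levels it lay above 1 for 13.6% and below 1 for 53.0%. Over all 4889 genes compared the shares were 14.2% and 11.9%. The highest of the list was Rps20 of the small subunit, with 14.1 per 10000 in cycling and 11.4 in other cells (ratio 1.23, 1.13 to 1.34).

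Ribosomal protein share was lower in cells with a high mitochondrial share. The 13 genes encoded on mitochondrial DNA held a median of 3.21% of a cell's UMIs (0.0343% to 21.6%), and 384 cells were above 5%. The median ribosomal protein share was 14.8% (quartiles 13.1% and 16.4%) in the 1671 cells up to 5% and 11.7% (8.71% and 13.7%) in the 384 above, a difference of -3.10 percentage points. Both shares are parts of the same total. With the mitochondrial genes taken out of the total, the medians were 15.2% and 12.6%.

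The medians went down from bin to bin, most of all at the top. In bins of 0 to 2, 2 to 3, 3 to 4, 4 to 5, 5 to 7, 7 to 10 and over 10% mitochondrial UMIs, the median ribosomal protein share was 15.4%, 15.2%, 14.6%, 13.9%, 13.0%, 11.1% and 6.34%. The last bin held 69 cells and the others 110 to 642. The rank correlation over all cells was -0.419 (r = -0.587), and -0.353 with the mitochondrial genes out of the total.

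**Figure D4:**
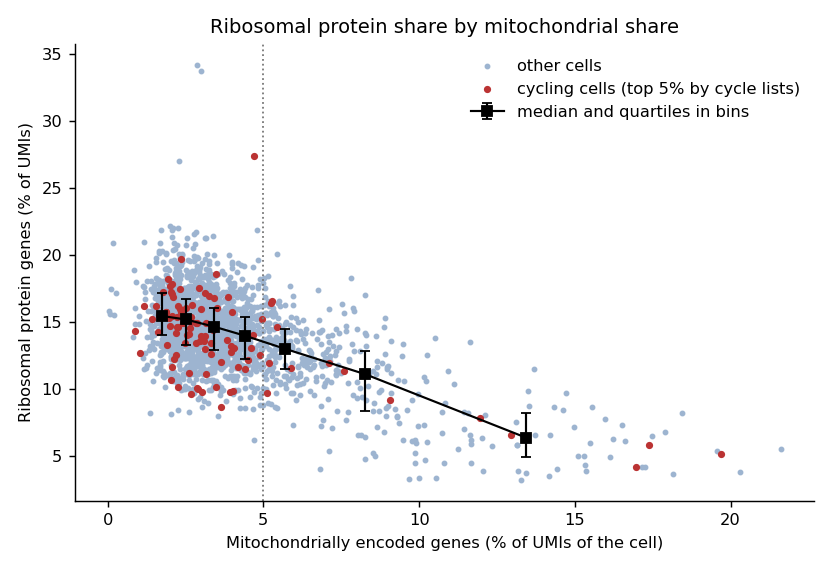
Percent of a cell's UMIs on ribosomal protein genes (vertical axis) against percent on mitochondrially encoded genes (horizontal axis), 1 point per cell, with cycling cells in red, squares for bin medians with quartile bars, and a dotted line at 5%. The bin medians go from 15.4% in the lowest to 6.34% in the highest bin, and cycling cells lie among the others.

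Depth was lowest and the share of Malat1 highest in the bins of highest mitochondrial share, with little trend in Malat1 up to 5%. From the lowest to the highest bin, median UMIs per cell were 2852, 3451, 3568.5, 3428, 3192, 2438 and 1640, and the median share of Malat1, a long noncoding RNA that stays in the nucleus, was 1.17%, 1.19%, 1.23%, 1.2%, 1.44%, 2.62% and 5.85%. Malat1 was looked at after the data were seen, and it had a rank correlation of -0.393 with the ribosomal protein share. In the 79 cells under 8% ribosomal protein share, median values were 11.7% mitochondrial UMIs, 4.92% Malat1 and 1804 UMIs. In the 37 cells over 20% they were 2.29%, 0.953% and 2758. The part of RNA quality in this was not tested.

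The difference was present in each quartile of total UMIs. From the lowest to the highest quartile, the median ribosomal protein shares of cells above and up to 5% mitochondrial UMIs were 8.93% and 14.3%, 12.2% and 14.8%, 12.8% and 15.3%, and 12.6% and 14.8%.

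Members were lower in the cells with a high mitochondrial share, about as many within the limit as past it. Of 97 members compared between cells above and up to 5% mitochondrial UMIs, 50 were lower past the limit (51.5%) and 1 was higher, where 14.2% of 7257 genes were lower and 19.3% higher. Of the 97 ratios, 96 were below 1, against 3384 of all 7257 and 169 of the 236 other genes at like levels. In the list of 77, all ratios were below 1, 38 were past the limit and the median was 0.80. The 95% interval lay below 1 for 76 of the 77 (98.7%), for 131 of the 236 (55.5%) and for 9.67% of all 7257 genes. The median was 0.806 in the large subunit, with 22 of 46 genes past the limit, and 0.797 in the small subunit, with 16 of 31. Among the 236 other genes, 35 were lower (14.8%) and the median was 0.904. The 236 were taken by level alone and include mitochondrially encoded genes, whose highest ratio (2.77) is also the highest of the 236. Such genes are high in these cells by the choice of the cells. With mitochondrial genes out of the total, 23 of the 97 were lower and 1 higher, where 10.1% of 7197 genes were lower and 24.2% higher, and the median of the 77 was 0.837. On that scale 12 of the 77 were past the limit, 10 of 46 in the large and 2 of 31 in the small subunit, against 15 of the 236 other genes (6.36%).

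The largest differences in the list were close to each other in size. Rpl27 was at 8.22 per 10000 above 5% and 11.4 up to 5%, a ratio of 0.720 (0.672 to 0.771). Rpl35 had 0.732, Rps3, which lies at the entry of the messenger RNA channel, 0.733, Rpl10, which joins the large subunit late in its assembly, 0.736, and Rpl36 0.739. The smallest difference was that of Rps21, with 8.89 and 9.37 per 10000 (0.949, 0.887 to 1.01), and Rplp2 (0.920), Rps15 (0.911) and Rpsa (0.908) were next to it. Within the stalk the ratio was 0.782 for Rplp0, 0.844 for Rplp1 and 0.920 for Rplp2.

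Outside the list, Rpl22l1 (0.741) and Rps27l (0.781) lay with the other members in this comparison. Rpl10-ps3 had 0.651 and Rpl23a-ps3 0.692. The 1 higher member was Rpl39l with 2.05 (1.16 to 3.50), on 20 and 51 UMIs.

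**Figure D5:**
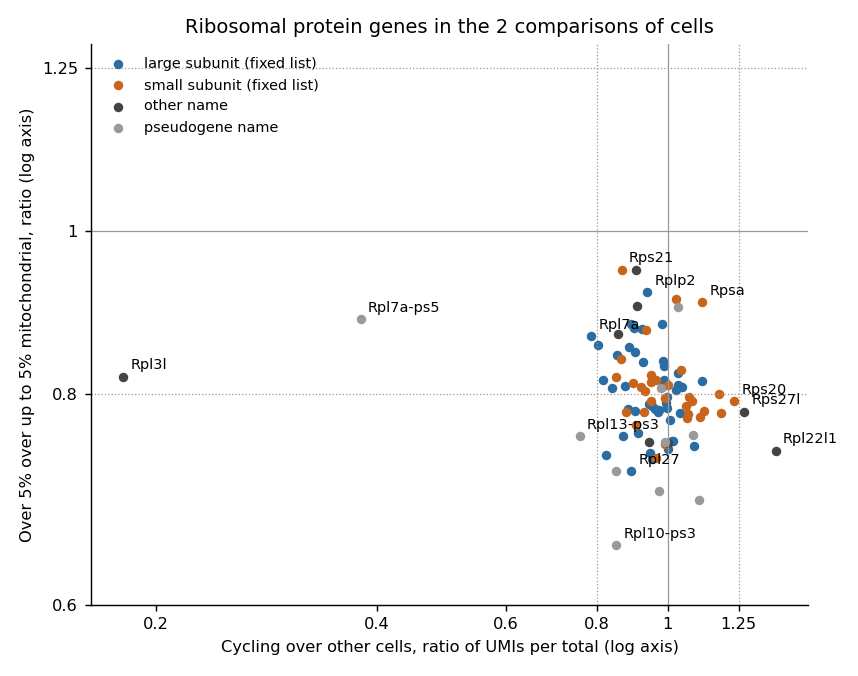
Ratio of UMIs per total in cells above over cells up to 5% mitochondrial UMIs (vertical log axis) against the ratio in cycling over other cells (horizontal log axis), 1 point per member compared in both, with dotted lines at the limit of 5 to 4 in either direction. The points lie below 1 on the vertical axis and mostly near 1 on the horizontal one, with Rpl22l1 (1.40) and Rps27l (1.27) to the right and Rpl3l (0.180) and Rpl7a-ps5 (0.380) to the left.

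Genes that work with the ribosome were listed apart. Of 20 factors of translation and associated proteins 19 were in the table, and the ribosomal protein share had a rank correlation of 0.434 with their summed share over all cells. The 103 cells with the most of them had a median share of 16.5%, the rest 14.2%. Of the 5 with the most UMIs, Naca had a rank correlation of 0.262 with the ribosomal protein share, Eif1, which helps select the start codon, 0.234, Tpt1 0.193, Eef1a1, which brings transfer RNA to the ribosome, 0.186 and Btf3 0.169. In cycling cells none of the 19 was higher past the limit and 2 were lower (10.5%, Eef1g 0.626 and Eif5a 0.780). Of all 4889 genes, 24.3% were higher and 23.3% lower, so neither share of the factors was above that background. With a high mitochondrial share 2 were lower (10.5%, Eef1e1 0.746 and Eif3e 0.792) and 1 higher (5.26%, Eif4b 1.29). Of all 7257 genes, 14.2% were lower and 19.3% higher, so these shares too were not above the background. The median ratio of the list was 0.876.

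In the cells with the most of these factors, the median ratio of the 77 ribosomal protein genes was 1.18. Of the 77, 13 were past the limit higher, a share near the background of 15%. None was past it lower, where 16.5% of 3762 genes were. No genes of like level were compared in these cells. Rpl4 had the highest ratio (1.45, 1.26 to 1.66), followed by Rpl15 (1.38) and Rps4x (1.36).

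The 23 listed genes of ribosome biogenesis, which make and assemble the subunits, had a rank correlation of 0.122 with the ribosomal protein share. The 103 cells with the most of them had a median share of 14.6% against 14.3%. In cycling cells 5 of 17 compared were higher (29.4%) and 3 lower (17.6%), near the 24.3% and 23.3% of all genes. Of the 5 with the most UMIs, Ncl, a protein of the nucleolus, was the only one past the limit (1.70, 1.41 to 2.03). Npm1 had 1.18, Nhp2 0.980, Nop10 0.959 and Fbl 0.869. With a high mitochondrial share 6 of 22 were lower (27.3%) and 2 higher (9.09%), where 14.2% and 19.3% of all genes were, and Nhp2 had 0.677.

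Fau encodes a ribosomal protein as a fusion with a ubiquitin-like protein, and its name lies outside the rule. Its ratio was 1.02 in cycling cells and 0.769 with a high mitochondrial share, inside the range of the list of 77. Its rank correlation with the ribosomal protein share was 0.413.

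Cells high in other programs of AMs had median ribosomal protein shares that differed from the rest by -1.39 (AM markers) to 0.0447 percentage points (heat shock genes). The 103 cells with the most UMIs of MHC class II genes had a median of 14.0% against 14.3% in the rest. The values were 14.3% and 14.3% for chemokine and TNF genes, 13.7% and 14.3% for immediate-early genes and 14.3% and 14.3% for heat shock genes. For the AM markers they were 13.0% and 14.3%, and those cells had a median mitochondrial share of 4.4% against 3.16%. Of the 77 genes, none was past the limit in the MHC class II cells, where 9.18% of 4511 genes were higher and 26% lower, and 1 was higher in the chemokine cells (Rpl3, 1.26), where 10.1% of 4511 were higher and 25.9% lower. None was past it in the immediate-early cells, where 13.1% of 4072 genes were higher and 20% lower. None was past it in the heat shock cells, where 11.5% of 4231 were higher and 18.8% lower. These backgrounds hold genes with as few as 10 expected UMIs in a group, for which counting error alone can pass the limit. No genes of like level were compared in these cells, so the contrast does not show that the 77 were unusually stable.

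The authors' scaled scores, which the study describes as scaled on UMIs and mitochondrial content, were a little lower in cycling cells. The mean score over the 100 members was -0.103 in cycling and 0.00503 in other cells, a difference of -0.108 where the SD over cells was 0.354. With the deposited log values the means were 2.15 and 2.14, a difference of 0.00718 in the other direction. In cells above and up to 5% mitochondrial UMIs the mean score was -0.330 and 0.0753. Over all cells the mean score had a rank correlation of -0.387 with mitochondrial share. A relation to mitochondrial content thus remained in these scores despite the described scaling.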

How the data were processed

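The authors aligned reads to mm10 with Cell Ranger 2.1, counted UMIs, and deposited for each gene and cell the natural log of 1 plus the UMIs per 10000 UMIs of the cell, made with Seurat under R 3.3.2. They also deposited a scaled score (log values described as scaled on UMIs and mitochondrial content, capped at 10). All log values converted to whole UMIs (100% within 0.05 of a whole number), and these UMI counts were used. Doublets were treated by the authors (gating of the study's sorts and a limit on genes per cell), and no caller was run here.

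Shares were computed per cell and pooled. Intervals at 95% are exact binomial (shares, ratios) or Poisson (levels) and cover counting only. Genes were compared with at least 10 expected UMIs in each group. Members, lists and the rule for named genes were chosen with earlier results of these data known. The rule took, from the list of 77, the 5 highest and 5 lowest levels, the 5 highest and 3 lowest indices, up to 5 genes each way per comparison, Rpsa and the stalk, the 10 most counted other members, and the 5 most counted genes of other lists. Other genes were named after their values were seen.

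Start windows came from RefSeq (GRCm38.p6), coding lengths and shared 98-base sequences in the last 300 bases from GENCODE M21. Python 3.11.15, numpy 2.4.6, scipy 1.17.1 and pandas 2.3.3 were used, and the calculations were tested on simulated data. Alternatives covered the members, the total, the cells, the limits and thinning to 2000 UMIs per cell, and 1 of those on the members is not reported here.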

Additional observations from a re-analysis of the deposited data

How the results depend on the processing

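The median ribosomal protein share of 14.3% became 13.8% with the list of 77, 14.8% with mitochondrial genes out of the total, 14.8% in cells up to 5% mitochondrial UMIs, 14.5% after thinning to 2000 UMIs (1756 cells kept, 299 left out) and 14.6% with the rows of shared sequence. The difference of -3.10 points between cells above and up to 5% became -2.65 with mitochondrial genes out of the total, -2.6 after thinning, -5.10 for the top 10% of cells and -2.42 without the 69 cells over 10%. The rank correlation of -0.419 became -0.353 with mitochondrial genes out of the total, -0.213 in cells up to 5%, -0.351 after thinning, -0.587 as Pearson's r and -0.360 without the 69 cells. The 51 members past the limit of 5 to 4 by mitochondrial share became 3 at 1.5-fold, 24 with mitochondrial genes out of the total, 77 with means over cells and 23 without the 69 cells. In cycling cells 6 became 2 at 1.5-fold. The counts at 1.5-fold, with means over cells and without the 69 cells were taken over members only. They have no share over all genes beside them and are not read against a background. The 79 members over an index of 1.1 became 48 with the ribosomal protein UMIs as the expected value. The subunit correlation of 0.881 became 0.908 with other UMIs as the total, 0.808 after thinning and 0.827 in cells up to 5%. The score difference of -0.108 turned to 0.00718 with log values. Apart from the alternatives that take fewer cells or a stricter limit, the cause was not tested.

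The difference of -0.0618 points between cycling and other cells ran over 8 alternatives from -0.45 after thinning to 0.0240 with the G2/M list alone. The SD of 3.10 points over single cells is too wide a measure to call it stable. Alternatives without cells over 10% mitochondrial UMIs, with rows of shared sequence and for the component were chosen after seeing the data. No paired analysis was possible because there was 1 library. At a median of 3278 UMIs per cell, genes under 10 expected UMIs in a group were not compared, which left out 5 members in cycling cells and 3 by mitochondrial share.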
